A study of Mus musculus with 7 samples.

Results

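The extrinsic cell death genes examined here are 9 genes of the 38026 in the deposited table: the ligands *Tnf* and *Tnfsf10*, the receptors *Fas*, *Tnfrsf1a*, *Tnfrsf1b* and *Tnfrsf10b*, and the intracellular regulators *Casp8*, *Cflar* and *Ripk3*. They were chosen by name, as death and TNF receptors, ligands of such receptors and intracellular regulators directly below them. All 9 were found and passed the filter on low values. RNA was sequenced from 7 subcutaneous tumors that grew untreated for 2 weeks in the right flank of C57BL/6 mice, which were 6 weeks of age at purchase and were housed for 2 weeks. All tumors were formed with a pancreatic ductal adenocarcinoma (PDA) cell line from a tumor of a genetically engineered mouse whose alleles include mutant Trp53 and Pdx1-Cre, and all of these cells had received Cas9 with a guide RNA by lentivirus and puromycin selection. In the 4 sgScramble tumors the guide was a scrambled control, and in the 3 sgKrt19 tumors it was directed at *Krt19*, a keratin of epithelial cells that belongs, in the study, to a CXCL12 coating of the cancer cells. Both selected pools and single-cell clones were made from the edited line, and which of them was sequenced is not stated. The comparison asks how tumors formed with *Krt19*-edited cells differ from the controls, and values are given as normalized read counts (the reads of a gene over the size factor of its library).

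Death receptors are members of the tumor necrosis factor receptor family whose intracellular death domain recruits the adaptor FADD and, through it, caspase-8. Caspase-8 either activates the executioner caspases directly or cleaves BID and so engages the mitochondrial route, and the caspase-like protein c-FLIP, encoded by *Cflar*, competes with it for the receptor complex. Where caspase-8 activity is blocked, the kinases RIPK1 and RIPK3 can form a complex that phosphorylates MLKL, which permeabilizes the plasma membrane in the process called necroptosis. Cytotoxic T cells and natural killer (NK) cells carry ligands of this family on their surface, and the TNF receptors also lead to NF-kB signaling and survival.

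The edited gene and the cell type markers of the tissue were examined first. *Krt19* was lower in every sgKrt19 tumor (mean 2012 ± 434, SD, n = 3) than in every sgScramble tumor (23053 ± 4392, SD, n = 4), and fell by 3.52 on the log2 scale (SE 0.183, adjusted p = 1.74e-05 by limma). The libraries held 40781199 to 44972100 reads, of which 3.02% to 4.74% were mitochondrial. Defining epithelial markers of a PDA were present in all 7 libraries, and 4 of the 5 were called higher in sgKrt19 tumors. All 6 skeletal muscle markers were called higher in sgKrt19 tumors, where they summed to 16242 to 23282, against 27.9 to 1849 in sgScramble tumors, the highest control being sgScramble 3. Of the T cell markers 6 of 7 were called higher, as were 3 of 5 NK cell markers, 5 of 5 neutrophil markers and 2 of 7 macrophage and monocyte markers, of which 1 was called lower. In bulk tissue fewer cells of a type and less RNA per cell cannot be told apart.

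Of the 9 genes, 6 were called higher in sgKrt19 tumors and 0 lower, by limma on log2(value + 1) at a Benjamini-Hochberg adjusted p under 0.05 over all 21322 genes tested. Of the 9, 0 were lower also at an unadjusted p under 0.05 and by edgeR or DESeq2, and both tools called the same 6. The same test called 34.0% of all genes, and 17.9% as higher, so a call is common in this comparison. The ligand genes *Tnfsf10* and *Tnf*, the receptor gene *Fas* and the necroptosis kinase gene *Ripk3* rose by 2.13-fold to 2.86-fold in mean, whereas the TNF receptor genes *Tnfrsf1a* and *Tnfrsf1b* rose by 1.29-fold and 1.43-fold. *Casp8*, *Tnfrsf10b* and *Cflar* were not called. In 7 of the 9 genes every sgKrt19 library lay above every sgScramble library, which held for 21.7% of all genes tested. The median log2 fold change of the 9 was 0.52, against 0.01 over all genes tested, whose lower and upper quartiles were −0.37 and 0.38.

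**Figure D1:**
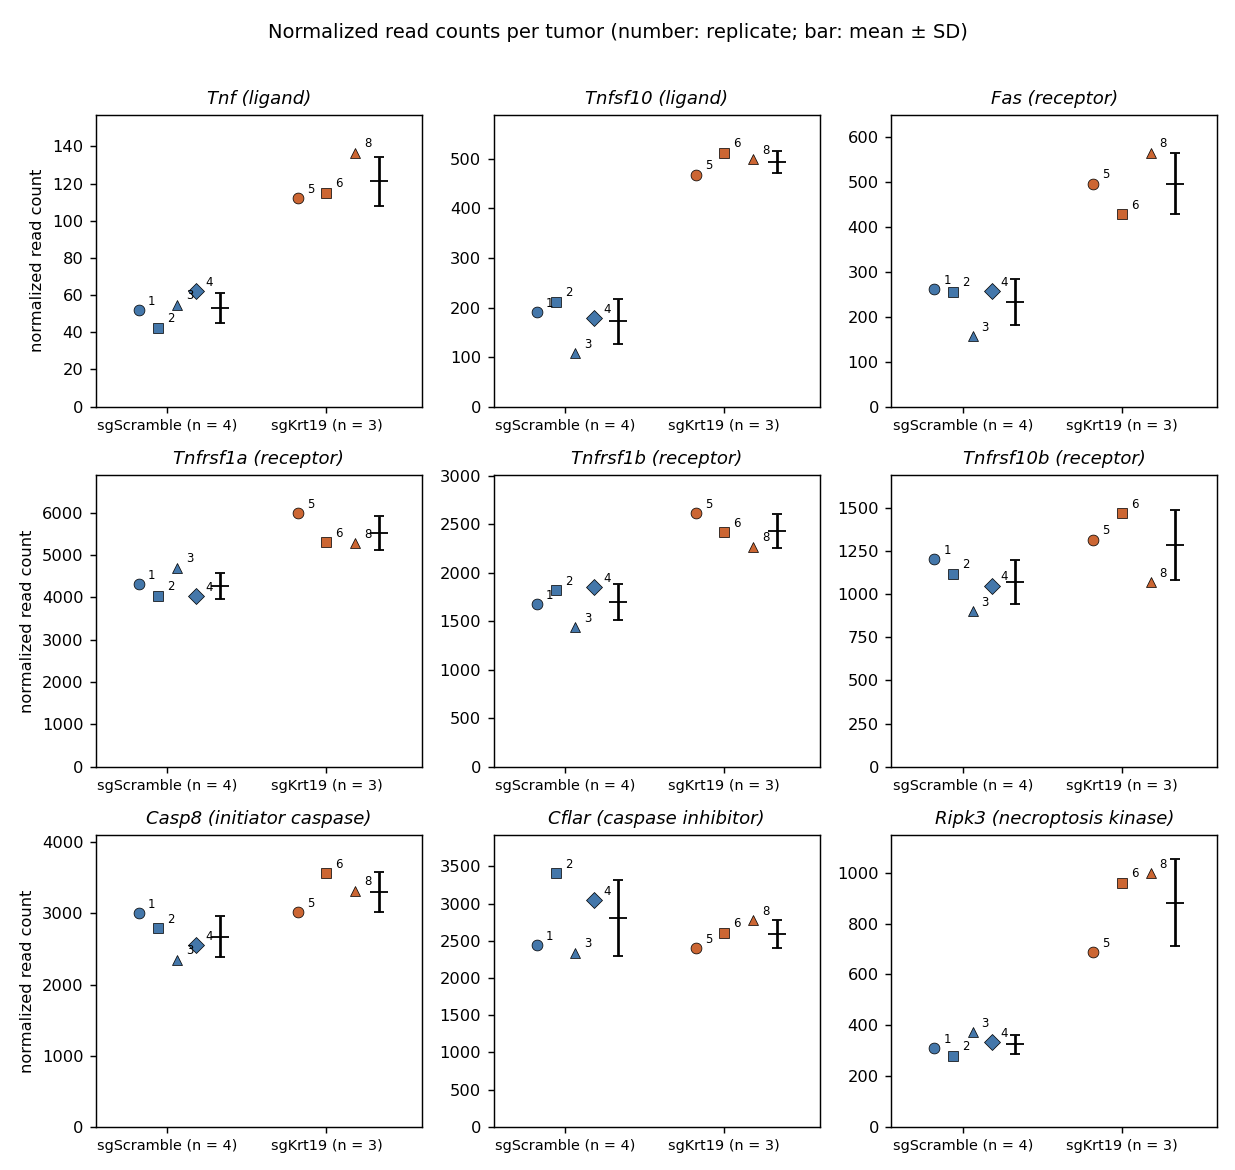
Normalized read counts of the 9 genes in each library, 1 panel per gene, with sgScramble (n = 4) and sgKrt19 (n = 3) libraries as points with their replicate number, and beside them the group mean with the SD as the error bar. The groups are separate in 7 panels and overlap for *Tnfrsf10b* and *Cflar*, and sgScramble 3 is the lowest library for *Fas* (157) and *Tnfsf10* (108).

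Among the ligands, *Tnfsf10* (ENSMUSG00000039304.11, chromosome 3, 27317028 to 27342427, plus strand, GRCm38) encodes TRAIL, which triggers apoptosis through the receptor encoded by *Tnfrsf10b*. Its normalized read counts were 190.4, 211, 108 and 179 in sgScramble tumors 1 to 4 and 468, 512 and 499 in sgKrt19 tumors 5, 6 and 8. Every edited tumor was far above every control, and the edited tumors were close together (172 ± 45.0, SD, n = 4, against 493 ± 22.5, SD, n = 3). The log2 fold change was 1.56 (SE 0.218, 95% confidence interval 1.07 to 2.04, adjusted p = 0.000673 by limma), the largest of the 9. *Tnf* (ENSMUSG00000024401.14, chromosome 17, 35199381 to 35202007, minus strand) encodes tumor necrosis factor, the ligand of both TNF receptors. Its counts were 52.0, 42.5, 54.8 and 62.1 in sgScramble tumors and 112, 115 and 137 in sgKrt19 tumors. The groups did not overlap, at 52.9 ± 8.13 (SD, n = 4) against 121 ± 13.3 (SD, n = 3), and the log2 fold change was 1.19 (SE 0.203, interval 0.74 to 1.64, adjusted p = 0.00195 by limma). Per kilobase of exon *Tnf* had the lowest mean level of the 9 genes.

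The other ligands of the family behaved similarly, since 5 of the 6 tested were called higher by limma and by edgeR, and 4 by DESeq2. None was called lower by limma (0 also at an unadjusted p under 0.05, by edgeR and by DESeq2). Over all genes tested, limma called 34.0%, and 17.9% as higher. The called ligand gene *Lta* was low, with means of 14.3 in sgScramble and 26.6 in sgKrt19 tumors, and kept its call in 6 of 15 alternatives. *Fasl*, the ligand of FAS that is carried by cytotoxic lymphocytes, had counts of 30.7, 35.6, 11.9 and 20.4 in sgScramble tumors and 114, 131 and 60.9 in sgKrt19 tumors. The lowest edited tumor, sgKrt19 8, was above the highest control, and the log2 fold change was 2.05 (SE 0.397, interval 1.16 to 2.93, adjusted p = 0.00386 by limma). *Ltb*, which encodes lymphotoxin beta, rose from 79.4 ± 16.6 (SD, n = 4) to 279 ± 85.1 (SD, n = 3), or by 1.78 on the log2 scale (adjusted p = 0.000586 by limma). *Tnfsf13b*, which encodes the B cell survival factor BAFF, rose less, with a log2 fold change of 0.78 (adjusted p = 0.0248 by limma). The call for *Tnfsf13b* was lost without sgScramble 2, sgKrt19 5, sgKrt19 6 or sgKrt19 8 (limma adjusted p of 0.0617, 0.0554, 0.0701 and 0.0604). It was also lost with scaling by library size in place of the size factors (limma adjusted p of 0.0827). *Tnfsf12*, the gene of TWEAK and the exception, stood at 762 ± 90.1 and 709 ± 65.7 (log2 fold change −0.10, interval −0.39 to 0.19, adjusted p = 0.566 by limma). Of its exon bases 48.25% are shared with *Tnfsfm13* on the same strand, and how reads were divided between them is uncertain.

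Among the receptors the largest difference was in *Fas* (ENSMUSG00000024778.13, chromosome 19, 34290666 to 34327772, plus strand), the gene of the receptor for FAS ligand. Its counts were 262, 256, 157 and 257 in sgScramble tumors and 496, 428 and 565 in sgKrt19 tumors. The controls 1, 2 and 4 were nearly equal, sgScramble 3 stood well below them, and all edited tumors were above all controls. The means were 233 ± 50.6 (SD, n = 4) and 496 ± 68.5 (SD, n = 3), which gave a log2 fold change of 1.11 (SE 0.201, interval 0.66 to 1.56, adjusted p = 0.00268 by limma). Without sgScramble 3 the log2 fold change was 0.93, with the call kept.

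*Tnfrsf1a* (ENSMUSG00000030341.17, chromosome 6, 125349362 to 125362484, plus strand) encodes TNFR1, the death domain receptor for TNF, which is found on most cell types. It had the highest mean level per kilobase of exon of the 9, and its counts were 4315, 4044, 4703 and 4034 in sgScramble tumors and 5994, 5309.9 and 5274 in sgKrt19 tumors. The groups did not overlap, but their separation was small beside that of *Fas*, with a log2 fold change of 0.37 (SE 0.106, interval 0.14 to 0.61, adjusted p = 0.0226 by limma). *Tnfrsf1b* (ENSMUSG00000028599.10, chromosome 4, 145213463 to 145246870, minus strand) encodes TNFR2, which lacks a death domain and is prominent on lymphocytes and myeloid cells. Its counts were 1679, 1821, 1442 and 1851 in sgScramble tumors and 2618, 2422 and 2269 in sgKrt19 tumors. Every edited tumor was again above every control, and the log2 fold change was 0.52 (SE 0.118, interval 0.26 to 0.79, adjusted p = 0.00798 by limma). With scaling by library size in place of the size factors, which moved the median of all genes to −0.21, the log2 fold changes were 0.15 for *Tnfrsf1a* (adjusted p = 0.243 by limma) and 0.31 for *Tnfrsf1b* (adjusted p = 0.0716 by limma), and neither was called. The call for *Tnfrsf1a* was also lost without sgScramble 2, sgScramble 4 or sgKrt19 5, with limma adjusted p-values of 0.0728, 0.0597 and 0.0740.

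*Tnfrsf10b* (ENSMUSG00000022074.6, chromosome 14, 69767472 to 69784411, plus strand) encodes the mouse death receptor for TRAIL. Its counts were 1202, 1118, 901 and 1048 in sgScramble tumors and 1313, 1468 and 1068 in sgKrt19 tumors. The groups overlapped, because sgKrt19 8 lay within the control range, and the log2 fold change was 0.26 (SE 0.142, interval −0.055 to 0.58, adjusted p = 0.176 by limma). The interval holds 0 as well as increases as large as that of *Tnfrsf1b*. Of the 9 other receptors of the family that were tested, limma called 0 higher and 3 lower, with 1 higher at an unadjusted p under 0.05, 0 by edgeR and 1 by DESeq2. Over all genes tested, limma called 34.0% either way. *Tnfrsf11b*, the gene of osteoprotegerin, a soluble decoy that binds TRAIL and RANK ligand, fell from 223 ± 13.0 (SD, n = 4) to 89.0 ± 8.12 (SD, n = 3), or by 1.32 on the log2 scale (SE 0.154, adjusted p = 0.000254 by limma). *Tnfrsf22*, a mouse TRAIL decoy receptor gene, had a log2 fold change of −0.62 (adjusted p = 0.0136 by limma), and its close copy *Tnfrsf23*, the third gene called lower, had −0.60 (adjusted p = 0.0103 by limma). Reads that match both copies may have been counted at either of them.

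Promoter sequences from RefSeq (GRCm38.p6, 250 bases before to 50 after the RefSeq start of the gene) were searched on both strands for 3 motifs, as interferon and NF-kB pathway genes were among those examined. The motifs were the gamma-activated site TTCNNNGAA, the interferon-stimulated element GAAANNGAAA and the kappaB site GGGANNTTCC, where N is any base. Windows were found for 8 of the 9 genes, with *Tnfrsf10b* not matched. The gamma-activated site was present in 3 of the 8 windows (*Fas*, *Tnfrsf1a* and *Tnfrsf1b*) and in 8.30% of all 32851 windows of the reference table. The interferon-stimulated element was present in 2 of the 8 (*Tnfrsf1b* and *Cflar*) and in 3.44% of all windows, and the kappaB letters in 0 of the 8 and in 1.47% of all. The 4 windows that hold a match are shown 5′ to 3′ on the strand of the gene, with the matches in capitals, so that called and not called genes can be read side by side. Counted from the RefSeq start, with negative positions before it, the gamma-activated sites begin at −93 in *Fas*, −244 in *Tnfrsf1a* and −181 in *Tnfrsf1b*, and the interferon-stimulated elements at −10 in *Tnfrsf1b* and 6 in *Cflar*. The RefSeq start lies 361 bases inside the GENCODE gene, whose coordinates are printed here, for *Tnfrsf1a* and 7128 bases inside it for *Casp8*, so the match in *Tnfrsf1a* falls after the GENCODE start, whereas the RefSeq and GENCODE starts of the other 6 genes lie within 49 bases of each other. The windows lie at chr19:34290409-34290708 (*Fas*, plus strand), chr6:125349473-125349772 (*Tnfrsf1a*, plus strand), chr4:145246821-145247120 (*Tnfrsf1b*, minus strand) and chr1:58711241-58711540 (*Cflar*, plus strand). *Tnfrsf1b* holds both kinds of interferon match and rose, and *Cflar* holds the interferon-stimulated element and was not called. *Tnfsf10*, with the largest change when all libraries were used, holds none of the 3 in its window. A match of letters is a description and does not show that a factor binds.
Fas: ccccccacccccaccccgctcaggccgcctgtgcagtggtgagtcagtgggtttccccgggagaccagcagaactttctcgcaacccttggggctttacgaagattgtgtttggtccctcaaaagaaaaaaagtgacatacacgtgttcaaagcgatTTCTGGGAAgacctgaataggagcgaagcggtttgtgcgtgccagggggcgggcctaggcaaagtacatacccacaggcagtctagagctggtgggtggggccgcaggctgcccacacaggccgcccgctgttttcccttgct
Tnfrsf1a: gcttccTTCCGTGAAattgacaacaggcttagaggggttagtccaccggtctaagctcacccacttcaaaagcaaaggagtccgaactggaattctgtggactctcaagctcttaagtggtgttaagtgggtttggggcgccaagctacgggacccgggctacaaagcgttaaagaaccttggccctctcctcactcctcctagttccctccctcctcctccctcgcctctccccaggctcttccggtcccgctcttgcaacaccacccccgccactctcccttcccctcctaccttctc
Tnfrsf1b: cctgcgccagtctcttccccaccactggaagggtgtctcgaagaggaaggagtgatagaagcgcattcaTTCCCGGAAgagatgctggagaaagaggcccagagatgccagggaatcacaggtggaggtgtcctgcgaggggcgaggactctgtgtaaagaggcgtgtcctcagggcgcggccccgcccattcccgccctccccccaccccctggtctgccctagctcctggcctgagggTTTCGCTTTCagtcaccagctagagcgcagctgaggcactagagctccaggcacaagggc
Cflar: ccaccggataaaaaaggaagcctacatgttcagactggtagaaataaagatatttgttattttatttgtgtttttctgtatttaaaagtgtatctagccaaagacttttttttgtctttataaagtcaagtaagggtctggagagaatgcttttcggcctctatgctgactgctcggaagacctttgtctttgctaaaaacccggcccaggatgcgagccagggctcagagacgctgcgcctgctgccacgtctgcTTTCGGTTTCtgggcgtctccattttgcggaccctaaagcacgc

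Among the intracellular genes, *Ripk3* (ENSMUSG00000022221.14, chromosome 14, 55784995 to 55788865, minus strand) showed the clearest difference. It encodes the kinase that drives necroptosis. Its counts were 310.2, 279.6, 373 and 334 in sgScramble tumors and 688, 961 and 999 in sgKrt19 tumors. The groups were far apart, and the means were 324 ± 39.2 (SD, n = 4) and 883 ± 169.7 (SD, n = 3). The log2 fold change was 1.43 (SE 0.164, interval 1.07 to 1.79, adjusted p = 0.000227 by limma), and *Ripk3* and *Tnfsf10* were the only 2 of the 9 that limma's test for a fold change above 1.5 called.

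*Casp8* (ENSMUSG00000026029.14, chromosome 1, 58795374 to 58847503, plus strand) encodes the initiator caspase of the death receptors. Its counts were 3003, 2794, 2347 and 2552 in sgScramble tumors and 3019.6, 3568 and 3317 in sgKrt19 tumors. All edited tumors were above all controls, but sgKrt19 5 barely exceeded sgScramble 1, and the log2 fold change of 0.31 did not pass the test (SE 0.117, interval 0.047 to 0.57, adjusted p = 0.0657 by limma). It passed without sgScramble 1, with a log2 fold change of 0.37 (adjusted p = 0.0374 by limma). *Cflar* (ENSMUSG00000026031.15, chromosome 1, 58711508 to 58758884, plus strand), its neighbor on the same strand, had counts of 2436, 3409, 2339 and 3044 in sgScramble tumors and 2396, 2607 and 2773 in sgKrt19 tumors. The edited tumors all lay inside the control range, with a log2 fold change of −0.10 (SE 0.144, interval −0.42 to 0.22, adjusted p = 0.611 by limma). An increase of *Cflar* like that of *Ripk3* lies outside the interval, and one as large as 0.22 on the log2 scale lies within it.

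**Figure D2:**
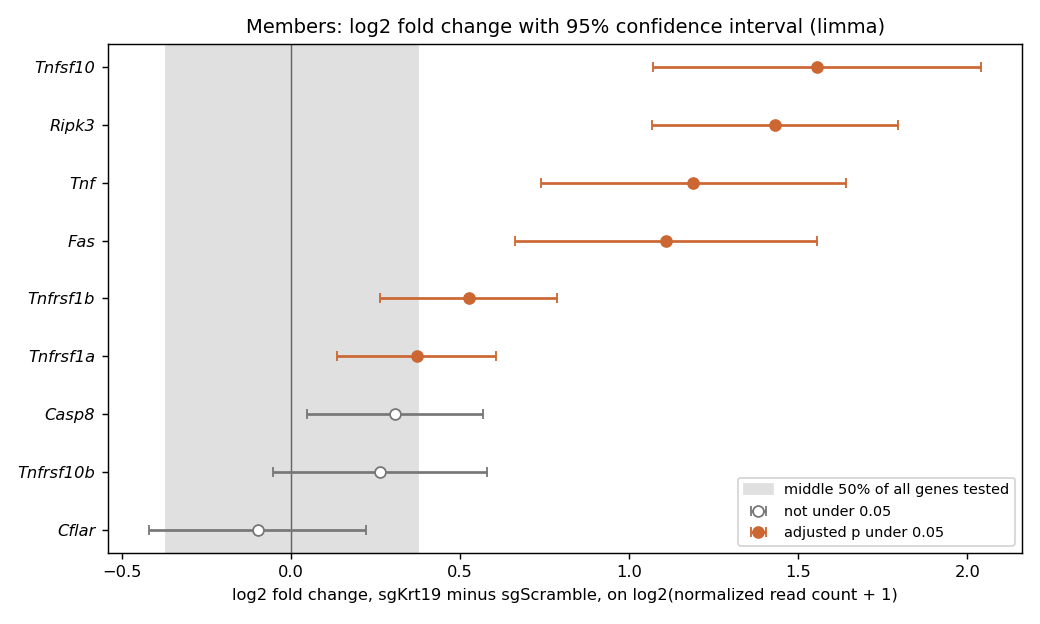
Log2 fold changes of the 9 genes, sgKrt19 minus sgScramble, with 95% confidence intervals as bars, filled where the limma adjusted p was under 0.05, over a gray band from the lower to the upper quartile of all genes tested. *Tnfsf10* (1.56) and *Ripk3* (1.43) lie at the top of the order and *Cflar* (−0.10) at the bottom, and the intervals of *Tnfrsf10b* and *Cflar* include 0.

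In all, 5 log2 ratios were compared within libraries, which removes the scaling of the library. They set a ligand against its receptor, partners in 1 complex against each other, or the TNF receptor gene *Tnfrsf1b* against *Tnfrsf1a*. With 4 against 3 libraries the exact two-sided permutation test has 35 splits and cannot give a p below 0.0571, so none could pass 0.05. The ratio of *Ripk3* to *Casp8* was −3.04 ± 0.312 (SD, n = 4) in controls and −1.92 ± 0.202 (SD, n = 3) in edited tumors, a difference of 1.12 (SE 0.209) with groups that did not overlap (exact permutation p = 0.0571, adjusted over the 5 ratios 0.143). The ratio of *Tnfsf10* to its receptor *Tnfrsf10b* was −2.66 ± 0.281 and −1.37 ± 0.234, a difference of 1.29 (SE 0.201), again without overlap and at the same exact p of 0.0571 (adjusted 0.143). The other 3 ratios overlapped between the groups. *Casp8* to *Cflar* differed by 0.41 (SE 0.168, exact p = 0.114, adjusted 0.190), as sgScramble 1 had a ratio of 0.30, among those of the edited tumors. *Tnfrsf1b* to *Tnfrsf1a* differed by 0.15 (SE 0.160, exact p = 0.514), and by 0.03 without sgScramble 3, which had the lowest ratio. *Fasl* to *Fas* differed by 0.94 (SE 0.441, exact p = 0.171, adjusted 0.214), with sgKrt19 8 at −3.19, inside the control range of −3.62 to −2.81, and by 1.37 without it.

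**Figure D3:**
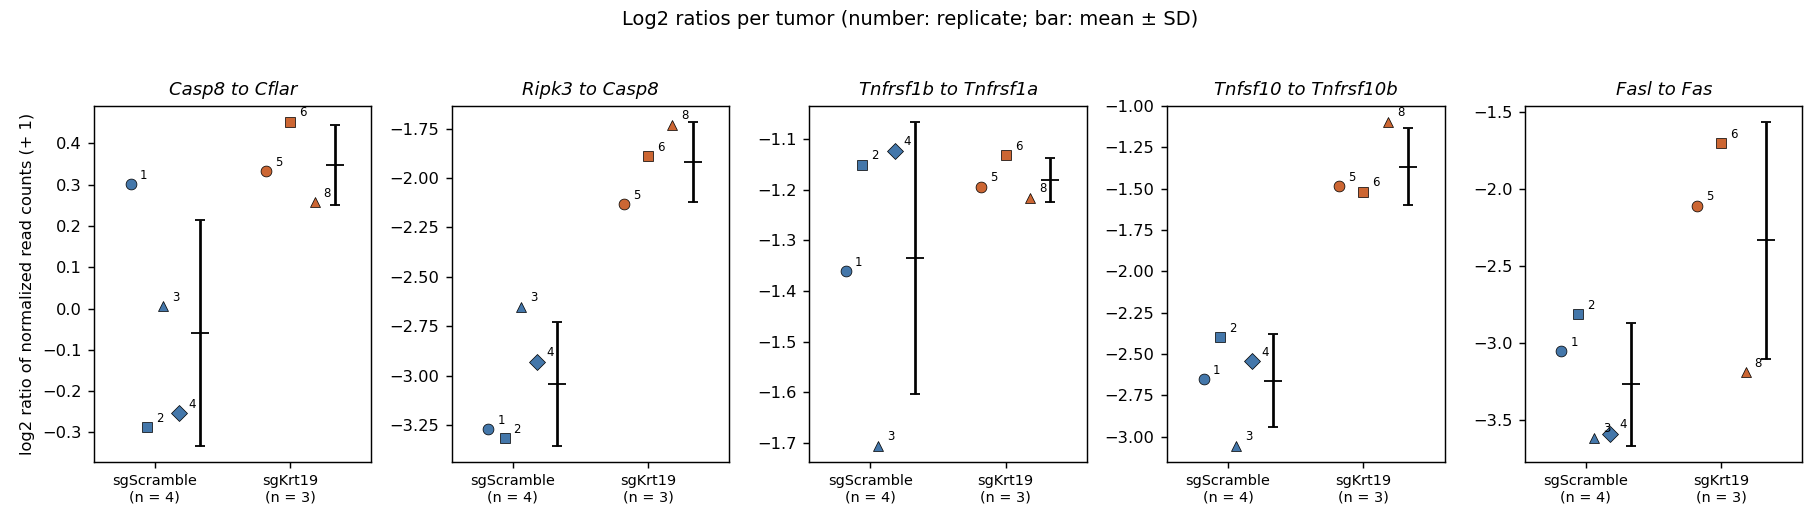
Log2 ratios of normalized read counts (+ 1) of paired genes in each library, with points for sgScramble (n = 4) and sgKrt19 (n = 3) libraries and beside them the group mean ± SD. Only *Ripk3* to *Casp8* and *Tnfsf10* to *Tnfrsf10b* are separate between the groups, and sgKrt19 8 lies among the controls for *Fasl* to *Fas* (−3.19).

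The other genes of these pathways were taken from 8 lists. Over the 8 lists with 81 tested genes, 26 were called higher and 8 lower, with a median log2 fold change of 0.16. Beside these counts and those of each list, limma called 34.0% of all genes tested, and 17.9% as higher. At the receptor complex, *Fadd*, the adaptor between receptor and caspase-8, was at 345 ± 40.8 and 409 ± 37.6 (log2 fold change 0.25, interval −0.069 to 0.57, adjusted p = 0.198 by limma). *Ripk1*, the kinase partner of RIPK3, was at 1824 ± 184 and 1889 ± 75.2 (0.06, interval −0.19 to 0.30, adjusted p = 0.718 by limma), and its sign turned under scaling by library size (−0.16). Of the 15 adaptors and regulators, 3 were called higher and 2 lower. *Tnfaip3*, the gene of the ubiquitin-editing enzyme A20, and *Tradd*, the adaptor of TNFR1, rose by 0.47 and 0.46 on the log2 scale (adjusted p = 0.0153 and 0.0139 by limma). *Tnip1*, which encodes a partner of A20, fell by 0.52, and *Birc2*, the gene of the ubiquitin ligase cIAP1, fell by 0.37 (adjusted p = 0.00315 and 0.0338 by limma). The calls for *Tnfaip3* and *Tradd* were lost with scaling by library size (limma adjusted p of 0.197 and 0.114), and that for *Tnfaip3* also without sgKrt19 6 or 8 (0.0515 and 0.0592). The call for *Birc2* was lost without sgScramble 2, 3 or 4 or sgKrt19 5 or 6, with limma adjusted p of 0.0942, 0.0598, 0.0630, 0.0605 and 0.115.

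Below the complex, 2 of the 8 other caspases tested were called higher by limma and 0 lower (0 also at an unadjusted p under 0.05, by edgeR and by DESeq2). *Casp1*, the inflammatory caspase, which is no part of the death receptor route, rose from 246 ± 50.8 to 691 ± 277, by 1.44 on the log2 scale (SE 0.245, adjusted p = 0.00195 by limma). Among 16 genes of the mitochondrial route 4 were called higher and 1 lower. For this list and the caspases, the share over all genes tested was 34.0% either way and 17.9% higher. *Bcl2a1d*, an antiapoptotic BCL2 relative of hematopoietic cells, rose by 0.92 (adjusted p = 0.00799 by limma) and *Cycs*, the gene of cytochrome c, by 0.89 (adjusted p = 0.00196 by limma). *Xiap*, which encodes an inhibitor of executioner caspases, fell by 0.38 (adjusted p = 0.0405 by limma), a call lost without sgScramble 2 or 4 or sgKrt19 5 or 8 (limma adjusted p of 0.117, 0.0909, 0.119 and 0.104). *Bcl2a1d* has close copies, and how reads were divided among them is uncertain.

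The necroptosis and pyroptosis list had 5 of 8 tested genes called higher by limma and 0 lower, where 1 was lower at an unadjusted p under 0.05, by edgeR and by DESeq2, and the median log2 fold change was 0.58. *Mlkl*, the substrate of RIPK3 that permeabilizes the membrane, had counts of 1203, 965, 875 and 1003 in sgScramble tumors and 2171, 2389 and 2594 in sgKrt19 tumors. As with *Ripk3*, all edited tumors were far above all controls, and the log2 fold change was 1.24 (SE 0.129, adjusted p = 0.000142 by limma). *Zbp1*, the nucleic acid sensor that can activate RIPK3, rose from 907 ± 315 to 2854 ± 531, by 1.72 on the log2 scale (SE 0.274, adjusted p = 0.00135 by limma). Transcript levels do not report whether these proteins were active.

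The NF-kB response genes moved both ways. Among the 12 of them 3 were called higher and 2 lower, with a median log2 fold change of −0.10. Over all genes tested 34.0% were called, and 17.9% as higher. *Icam1*, an adhesion molecule for leukocytes, rose from 4977 ± 198 to 12312 ± 1286, by 1.30 on the log2 scale (adjusted p = 4.99e-05 by limma), and *Sod2*, the mitochondrial superoxide dismutase gene, by 0.68 (adjusted p = 0.00135 by limma). *Nfkb1*, the gene of an NF-kB subunit, fell by 0.53 and *Vcam1*, another adhesion molecule, by 0.44 (adjusted p = 0.0145 and 0.0322 by limma). The call for *Nfkb1* was lost without sgKrt19 5 (limma adjusted p of 0.0521), and that for *Vcam1* without sgScramble 1, 2 or 4 or sgKrt19 6 or 8 (0.0527, 0.102, 0.0576, 0.0978 and 0.0999). In the interferon gamma list 4 of 7 were called higher by limma and 0 lower (0 also at an unadjusted p under 0.05, by edgeR and by DESeq2). *Irf1*, the gene of an interferon-induced transcription factor, rose by 0.91 (adjusted p = 0.00236 by limma).

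**Figure D4:**
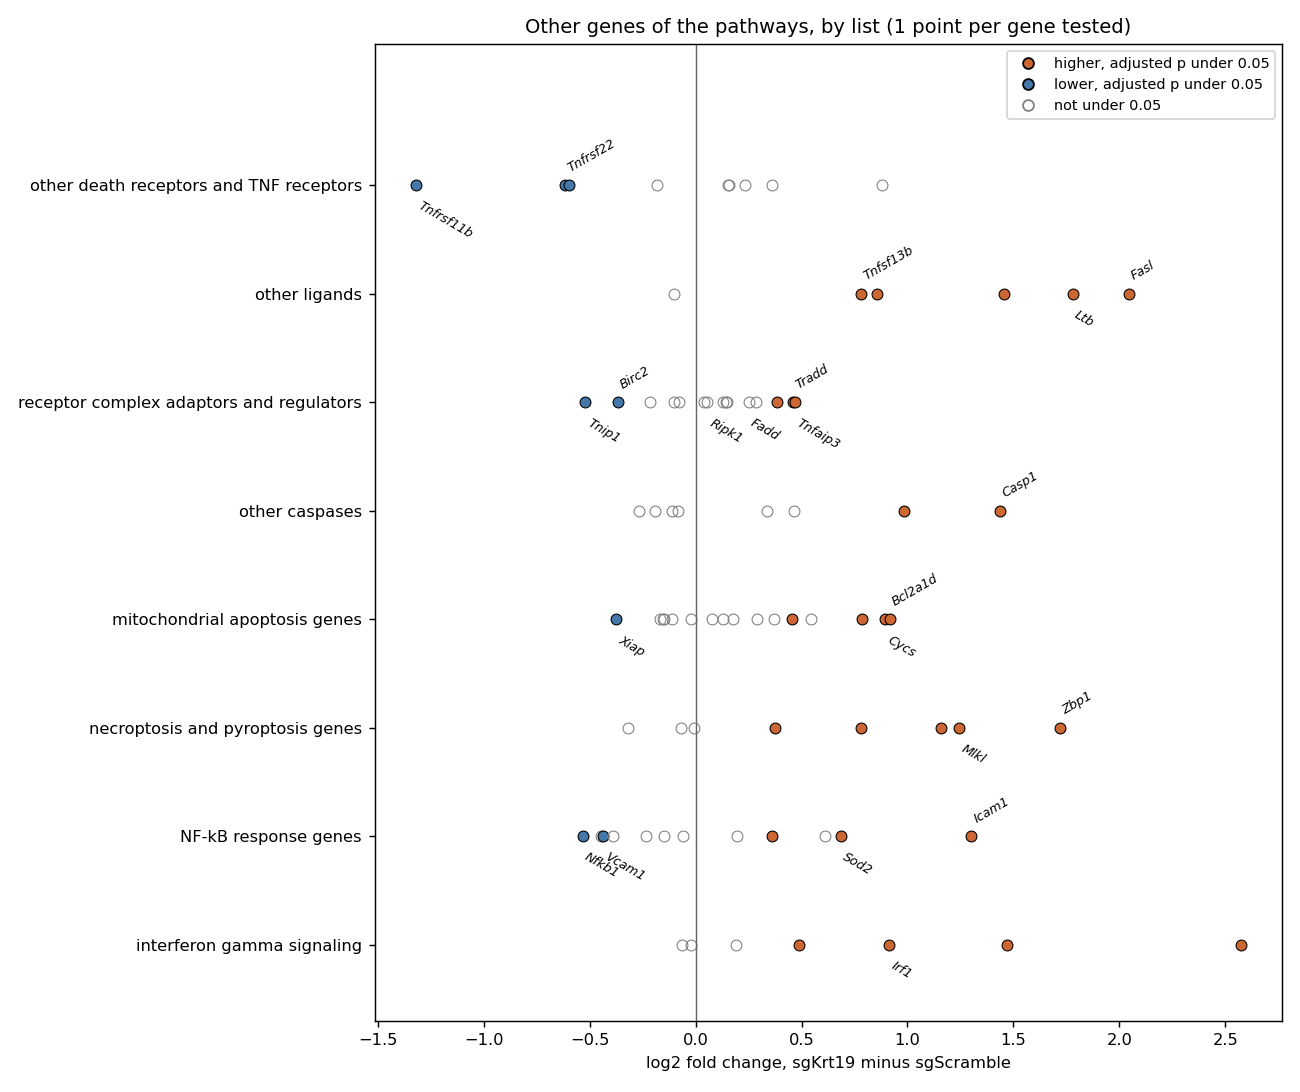
Log2 fold changes of the tested genes of the 8 pathway lists, sgKrt19 minus sgScramble, 1 point per gene and 1 row per list, filled where the limma adjusted p was under 0.05. Called points lie to the right in the ligand, caspase, necroptosis and interferon gamma rows, to the left in the receptor row, and on both sides in the others.

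Compared per kilobase of exon, which allows levels to be set between genes, the mean levels over the 7 libraries were 1857 for *Tnfrsf1a*, 1017 for *Casp8*, 528 for *Tnfrsf1b*, 246 for *Ripk3*, 214 for *Cflar*, 213 for *Tnfrsf10b*, 168 for *Fas*, 58.8 for *Tnfsf10* and 50.1 for *Tnf*. The first 3 stood above the next gene in all 7 libraries, as did *Fas* above *Tnfsf10*. The middle of the order was not fixed, since *Ripk3* exceeded *Cflar* in 3 libraries and *Cflar* exceeded *Tnfrsf10b* in 4. In level per kilobase *Ripk3* was below *Cflar* in sgScramble tumors (141 ± 17.1 against 222 ± 40.1, SD, n = 4) and above it in sgKrt19 tumors (385 ± 74.0 against 205 ± 14.9, SD, n = 3). The exon length is that of all annotated exons of a gene, and isoforms of other lengths would shift the order.

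Markers of lymphocytes and neutrophils moved with the group as did the 6 genes. The summed T cell markers were 448 to 933 in sgScramble and 2861 to 5442 in sgKrt19 tumors, the summed NK cell markers 270.3 to 448 and 1442 to 2054, and the summed neutrophil markers 364 to 541 and 1051 to 1156. Of the NK cell markers, *Nkg7* (means 148 and 1051) and *Klrd1* (103 and 534) had the highest levels. *Ncr1* (16.2 and 29.4) and *Klrb1c* (40.8 and 89.0) overlapped between the groups and were not called (limma adjusted p of 0.197 and 0.0525). The summed NK cell markers thus follow mainly *Nkg7* and *Klrd1*. Whether these rose in NK cells or in T cells, whose markers also rose, was not tested. Relative to the sgScramble mean, on the log2 scale, the T cell markers stood at 2.77, 2.94 and 2.01 in sgKrt19 5, 6 and 8, and *Fas* at 1.09, 0.88 and 1.28. *Tnf* (1.08, 1.12 and 1.37) and *Ripk3* (1.09, 1.57 and 1.62) were likewise highest in sgKrt19 8, where the T cell markers were lowest of the edited tumors, whereas *Tnfsf10* was nearly level (1.44, 1.57 and 1.53). *Tnfrsf1a* (0.49, 0.31 and 0.30) and *Tnfrsf1b* (0.62, 0.51 and 0.42) were lowest in sgKrt19 8, as the T cell markers were, and the neutrophil markers (1.12, 1.17 and 1.26) were highest there. The skeletal muscle markers stood at 5.51, 5.06 and 5.58, and the epithelial markers at 0.83, 0.83 and 0.90, with all 3 edited tumors above all controls for both. In the epithelial sum the keratin genes *Krt8* (means 55494 and 103416) and *Krt18* (49260 and 95589) had the highest levels. *Epcam* (910 and 913) overlapped between the groups and was not called (limma adjusted p of 0.943). No marker of these lists was at 0 in every library, although the muscle genes *Ckm*, *Myh4* and *Actn2* were at 0 in at least 1 control. The part of lymphocytes, neutrophils, muscle and epithelial cells in the differences of the 6 genes was not tested.

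**Figure D5:**
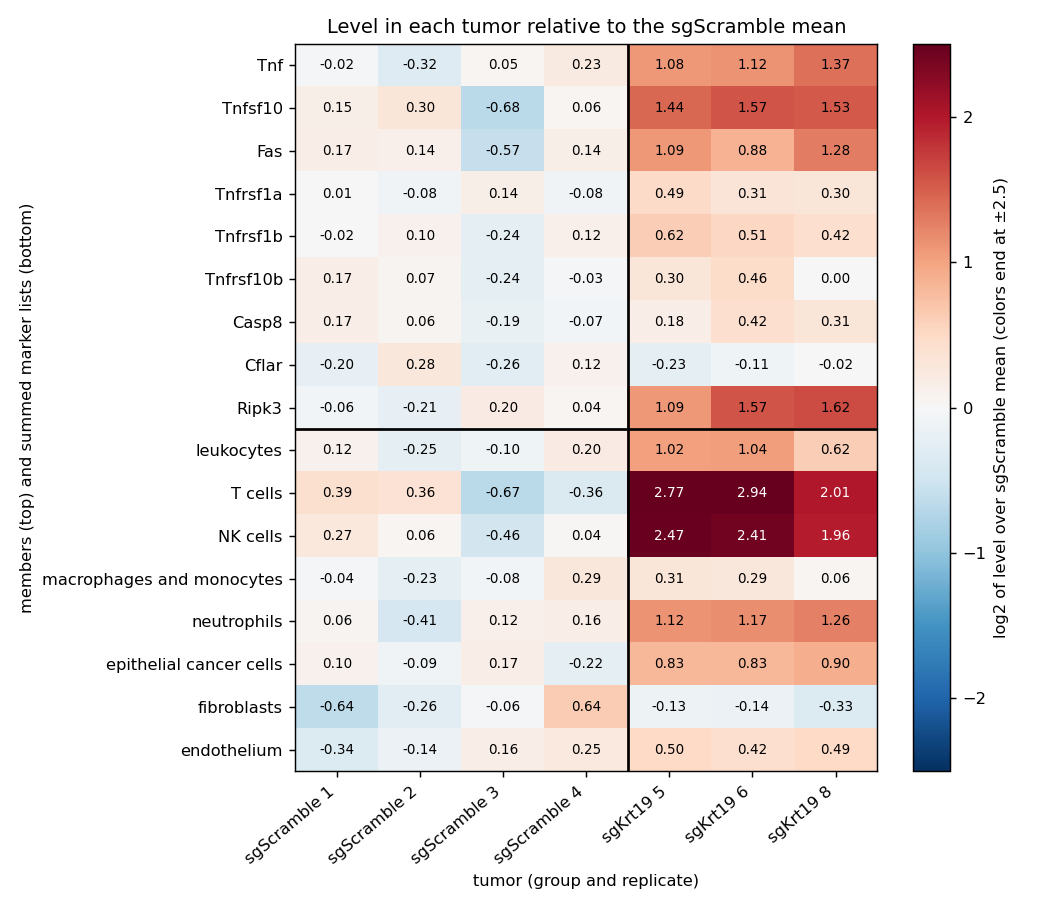
Log2 level of the 9 genes and of 8 summed marker lists in each library relative to the sgScramble mean, 1 column per library, with the value printed in each cell and colors that end at ±2.5. *Fas*, *Tnf*, *Tnfsf10* and *Ripk3* are at 0.88 to 1.62 in the edited tumors, beside T cell markers at 2.01 to 2.94 and epithelial markers at 0.83 to 0.90.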

How the data were processed

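The authors deposited 1 table of 38026 genes with 1 column per tumor library (polyA RNA per the labels; the study names a stranded total RNA kit). Its values are a signal: reads per gene divided by a size factor of the library, made by the authors on the mm10 build, per the submitters' processing notes. The aligner and counter are not given in the sources used here, and whether strand was used is not stated. Values were whole multiples of what 1 read is worth (100% of values in every library, within 0.01 read), so reads were recovered. Libraries held 40781199 to 44972100 reads, and a floor of 3 reads equals 2.74 to 3.47. Without molecular identifiers this covers counting error alone. Replicates within a group differed by more than sampling noise (chi-square per degree of freedom 18.8 to 81.0), and each library counted as 1 replicate. The labels do not say that each tumor came from another mouse, so p-values measure the spread between these samples. The labels give no batch.

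The 21322 genes that reached a value of 10 in 3 or more libraries were fitted with limma 3.58.1 (R 4.3.3) on log2(value + 1), with group as the only term, trended eBayes and Benjamini-Hochberg adjustment over all genes tested, called under 0.05. The pseudocount understates changes of low genes. edgeR 4.0.16 (quasi-likelihood) and DESeq2 1.42.0 on recovered reads, other pseudocounts, filters and scalings, a test against a 1.5-fold change and leaving out each library were alternatives. The fits were tested on simulated data. Ratios were compared by an exact permutation test (SciPy 1.17.1). Positions and exon lengths come from GENCODE M21, which holds 37095 (97.55%) of the identifiers. None of the 9 genes shares exons with another gene.

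The members and the 8 pathway and 12 marker lists were chosen with earlier results of these data known. Named genes are the 9, *Krt19*, in each pathway list the 2 called genes with the largest change each way (mean of at least 100, groups not overlapping), *Fasl*, *Fadd*, *Ripk1*, *Mlkl*, the markers, and for each member the genes of most similar pattern. *Tnfsf12*, *Lta* and *Tnfrsf23* were named after their values were seen. Some genes that the rule names and 1 allele of the cell line are not reported here.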

Additional observations from a re-analysis of the deposited data

Results flagged for a closer look

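In sgScramble tumors 37 results were searched for a library far from the other 3, and 2 were found by Dixon's test at the 95% level, where chance gives about 1 in 20. *Fas* was 157 in sgScramble 3, against 256 to 262 in the other controls, a gap of 0.943 of the range. *Tradd* was 690.0 in sgScramble 4, against 807 to 819, a gap of 0.907 of the range. The edited tumors, at 3, are too few for this search.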

How the results depend on the processing

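The 9 genes were refitted under 16 alternatives. Of the 144 values 134 kept their direction and their side of the threshold, 9 lost the call and 1 gained it, and none reversed. limma's test for a fold change above 1.5 called 2 of the 9 genes, 9 pathway genes and 1336 genes in all, because it asks for a larger change; *Fas* (adjusted p = 0.143) and *Tnf* (0.0892) then fell short. With 1 library left out, 5 to 7 of the 9 genes, 25 to 36 pathway genes and 4861 to 7714 genes in all were called. The number of genes higher was 2481 without sgKrt19 5 and the number lower 2232 without sgScramble 2, against 3820 and 3420. edgeR called 7188 genes and DESeq2 7971, of which 7010 and 7111 were shared with limma in direction, and both called the same 6 of the 9 genes. With scaling by library size only, 2187 genes were higher and 5705 lower, so that 27.7% of calls were higher in place of 52.8%, and 4 of the 9 genes were called. *Ripk1* reversed to −0.16 under that scaling and to −0.0026 without sgScramble 3 (−0.0026 to 0.10 over the tumors left out), and the cause was not tested. No paired analysis was possible because the groups share no replicate number. With 4 against 3 libraries the ratios could not pass 0.05 under any alternative, and their differences kept their sign in all of the alternatives run. Depth limits genes with low values, such as *Fasl* and *Tnf*.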

Other observations

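For each of the 9 genes the tested genes of most similar pattern were found by Pearson's r of log2(value + 1) over the 7 libraries, leaving out genes with a mean under 100 except in the pathway and marker lists, which were searched whole. The 7 points share the difference between the groups, the library and its scaling, so r is a description only. *Tnfsf10* was most like *Apol10b* (r = 0.997) and *H2-Q6* (0.996). *Fas* was most like *Gm12250* and *Trim12c* (both 0.993), and in the pathway and marker lists like *Zbp1* (0.991). *Ripk3* was most like *Sema4a* (0.997) and *Chdh* (0.996), and *Tnf* like *Lyn* (0.991) and *Icosl* (0.990), and in the lists both were most like *Traf1* (0.986 and 0.977), the gene of a TNF receptor adaptor.

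For the TNF receptors the nearest genes were *Clptm1* and *Gm26841* (both 0.994) for *Tnfrsf1a* and *Polr3g* (0.994) and *Erap1* (0.991) for *Tnfrsf1b*. In the lists these were the neutrophil marker *S100a8* (0.97) and the ligand gene *Tnfsf14* (0.972). The 3 genes that were not called had somewhat lower values. *Tnfrsf10b* was most like *Glce* (0.982) and *Mmgt1* (0.971), *Casp8* like *Ipo7* and *Plekha3* (both 0.987), and *Cflar* like *Igip* (0.9745) and *Epc1* (0.974). In the lists *Cflar* was nearest to *Bcl2* (0.967), the gene of an antiapoptotic protein.

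The other marker lists complete the account of the tissue. All 5 leukocyte markers were called higher in sgKrt19 tumors, as were 2 of 4 endothelial markers. Of the 5 fibroblast markers, the 3 adipocyte, 2 skin keratinocyte and 1 B cell markers tested, limma called 0, with 1 (an adipocyte marker) at an unadjusted p under 0.05 and 0 by edgeR and by DESeq2.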
